A study of Mus musculus with 2 samples.

Results

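The genes described here encode the collagens, the laminins, the nidogens and fibronectin, which together build the fibrils and basement membranes of the extracellular matrix. Within this family, members were taken by symbol alone: every mouse gene named as a collagen chain, a laminin α, β or γ chain, a nidogen or Fn1 was kept, which gave 58 of the 43346 gene rows. They comprised 44 collagens, 11 laminins, 2 nidogens and Fn1, and the collagens were divided into 11 fibrillar, 8 basement membrane and 25 other chains. Total RNA from the neural tube of B6NCrl mouse embryos at embryonic day 14.5 was sequenced in 2 libraries of 1 group, each made from 10 ng of RNA with spike-in RNA added. Each is a tube from the first-numbered pup of a litter, that of pregnant female 2 for replicate 2 and that of pregnant female 1 for replicate 1, and the labels also describe both libraries as pooled male and female. The labels name no treatment and no mutant allele, and the study has no second condition. All comparisons are therefore between members within a library, or between the 2 libraries, and no p-value is given.

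A collagen is a triple helix of chains in which glycine recurs at a fixed spacing, written Gly-X-Y. Fibrillar collagens form the banded fibres of connective tissue, and in and around the embryonic neural tube they are known from the meninges and other fibroblast-rich tissue. Basement membranes are thin sheets in which a laminin network and a type IV collagen network are linked by nidogens; one lies under the pia around the neural tube, and others surround blood vessels and the Schwann cells of nerves. Fibronectin is a matrix glycoprotein that cells bind through integrins, and it is made around developing vessels and in embryonic mesenchyme.

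The libraries held 26025302 expected counts in replicate 2 and 33360108 in replicate 1, an expected count being the deposited estimate of reads per gene. Levels are given in TPM, the share of transcripts scaled to a fixed sum, which is scaled by gene length and so allows genes to be compared within a library. The ratio of replicate 2 to replicate 1 was taken from counts after scaling by library size, where the mean count reached 10, with a 95% interval that covers counting error only. Against the label of pooled male and female, Xist stood at 0.05 TPM in replicate 2 and 70.8 TPM in replicate 1, and the Y-linked Ddx3y at 30.6 TPM in replicate 2 and 0.02 TPM in replicate 1. Neuron markers summed to 4791 TPM in replicate 2 and 4921 TPM in replicate 1, and neural progenitor markers to 2632 TPM in replicate 2 and 2415 TPM in replicate 1, so the labelled tissue was represented in both. Markers of meninges and fibroblasts summed to 329.6 TPM in replicate 2 and 56.65 TPM in replicate 1. Of these, 13 of the 14 tested were at least 2-fold higher in replicate 2, beside 5.58% of all genes tested. In bulk RNA, fewer cells of a type and less RNA per cell cannot be told apart.

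Matrix genes were far more abundant in replicate 2. All 58 members together summed to 1547 TPM in replicate 2, against 288.6 TPM in replicate 1, or 0.155% of the library's TPM in replicate 2 and 0.0289% in replicate 1. At least 1 TPM in both libraries was reached by 34 of the 58 members (58.6%), beside 34.7% of all gene rows and 60.8% of protein-coding genes; replicate 2 had 46 such members and replicate 1 had 34. Of the 54 members with enough counts to test, 31 (57.4%) were at least 2-fold higher in replicate 2, beside 5.58% of the 17623 genes tested, and 0 were at least 2-fold lower, beside 3.11%. The median log2 ratio was 1.28 over the tested members and -0.01 over all genes tested. The interval lay wholly above 1 for 43 members and wholly below 1 for 2, Col25a1 and Lama3. The share of all genes whose interval excludes 1 was not computed, so these 2 counts have no background. Small differences can exclude 1 at high counts, as for the neuron markers Tubb3 (0.934 to 0.960) and Dcx (1.005 to 1.036).

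**Figure D1:**
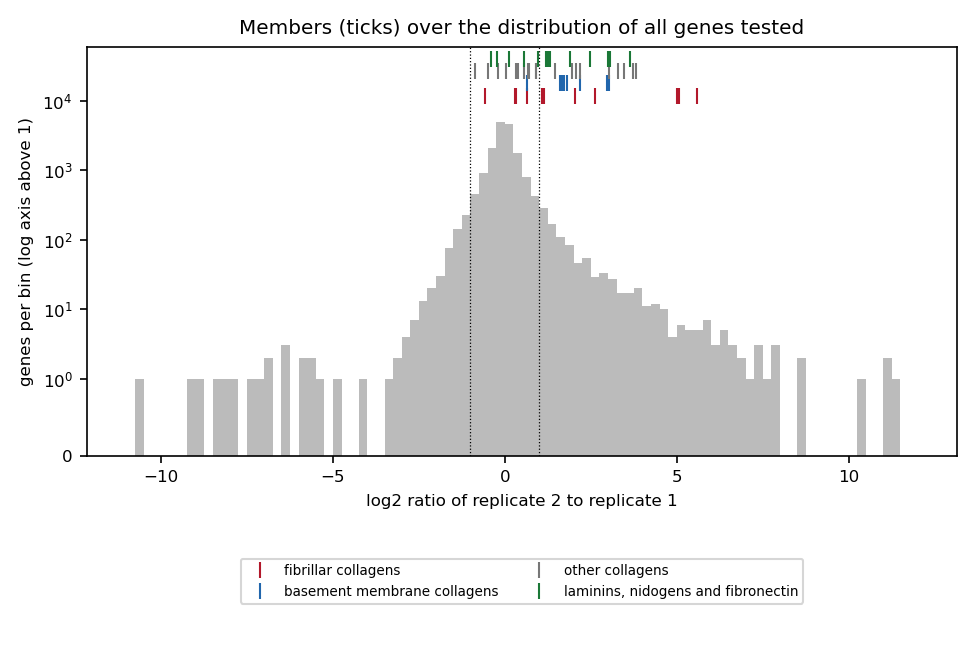
Grey bars count all genes tested by their log2 ratio of replicate 2 to replicate 1 (x axis, bins of 0.25; y axis on a log scale above 1), and coloured ticks mark 53 of the 54 tested members by class, with dotted lines at 2-fold. The 3 red ticks farthest to the right are Col1a1, Col1a2 and Col3a1, at log2 ratios of 5.00, 5.05 and 5.60, and no tick lies left of the lower line.

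The classes of collagen were ordered differently in the 2 libraries when their summed levels were compared. Fibrillar collagens summed to 903.7 TPM in replicate 2 and 49.4 TPM in replicate 1. Basement membrane collagens summed to 177.8 TPM in replicate 2 and 37.5 TPM in replicate 1, and the other collagens to 214.9 TPM in replicate 2 and 112.8 TPM in replicate 1. Fibrillar chains thus held 69.7% of collagen TPM in replicate 2, whereas the other collagens held 56.5% in replicate 1. In replicate 2 the fibrillar share was largely Col3a1, Col1a2 and Col1a1; in replicate 1 the leading collagen of any class was Col9a3.

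**Figure D2:**
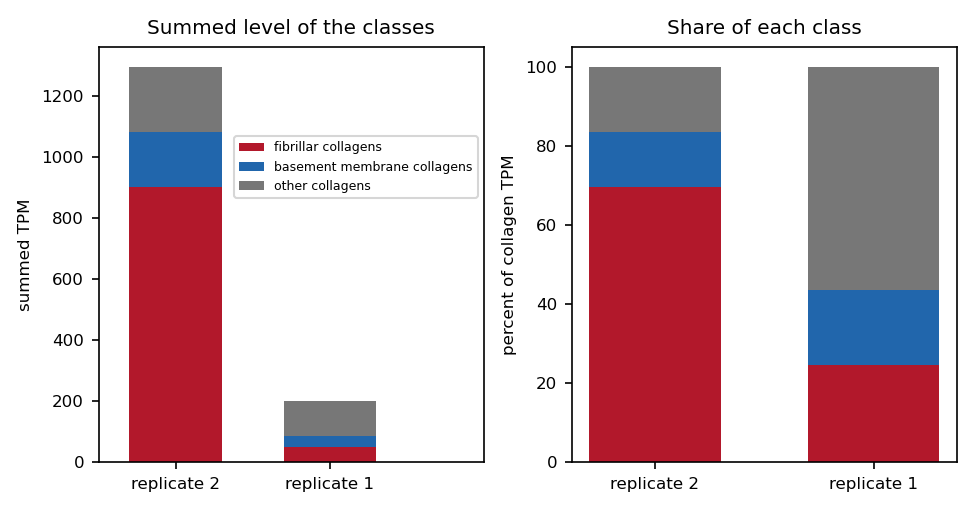
Stacked bars give the summed TPM of fibrillar, basement membrane and other collagens (left) and their percent of all collagen TPM (right), with replicate 2 to the left of replicate 1. The red fibrillar segment is 903.7 TPM and 69.7% in replicate 2, against 49.4 TPM and 24.7% in replicate 1.

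The typical member of each class gave a more similar picture in the 2 libraries than the sums did. The median fibrillar chain stood at 12.8 TPM in replicate 2 and 2.99 TPM in replicate 1, the median basement membrane chain at 8.23 TPM in replicate 2 and 2.54 TPM in replicate 1, and the median other collagen at 4.25 TPM in replicate 2 and 0.98 TPM in replicate 1. On the scale of log2(TPM + 1), basement membrane collagens lay below fibrillar collagens by a difference of -0.68 in replicate 2 and -0.22 in replicate 1. They lay above the other collagens by 0.72 in replicate 2 and 0.79 in replicate 1. Fibrillar collagens lay above the other collagens by 1.40 in replicate 2 and 1.01 in replicate 1. Each of these differences kept its sign in both libraries, but the order depends on how a class is summarised: by summed TPM, basement membrane collagens were below other collagens by -0.27 in replicate 2 and -1.59 in replicate 1, and fibrillar collagens were below other collagens in replicate 1 by -1.19. With only members that reached 1 TPM in at least 1 library, the difference between basement membrane and fibrillar collagens was 0.06 in replicate 2.

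**Figure D3:**
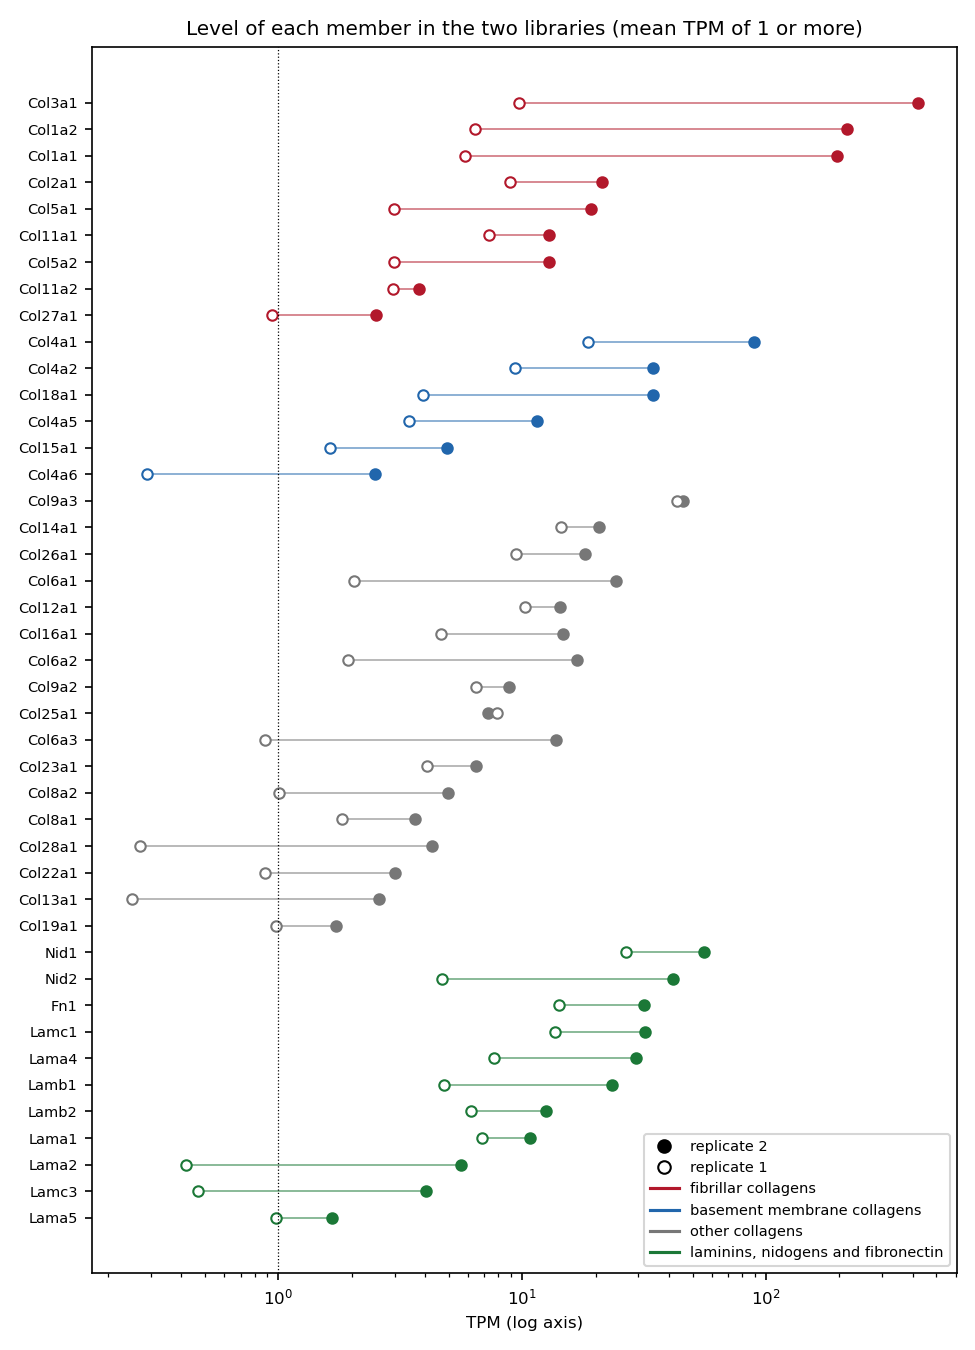
TPM on a log axis for 43 of the 44 members with a mean TPM of 1 or more, grouped by class and ordered by mean level; filled circles are replicate 2, open circles are replicate 1, and the dotted line marks 1 TPM. The widest gaps are those of Col3a1, Col1a2 and Col1a1, whereas those of Col9a3 and Col25a1 nearly close.

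Among fibrillar collagens, the chains of types III and I stood apart. Col3a1 (ENSMUSG00000026043.14, GRCm38 chr1:45311538-45349706) encodes the only chain of type III collagen, a fibre of vessel walls, skin and other distensible tissue. It had 419 TPM (24540 counts) in replicate 2 and 9.70 TPM (642 counts) in replicate 1, a ratio of 48.4 (95% interval 44.8 to 52.4). Col1a2 (ENSMUSG00000029661.12, chr6:4504814-4541544), which encodes the α2 chain of type I collagen, had 215 TPM in replicate 2 and 6.42 TPM in replicate 1, a ratio of 33.2 (30.7 to 36.0). Col1a1 (ENSMUSG00000001506.10, chr11:94936224-94953042), which encodes the α1 chain of the same collagen, had 196 TPM in replicate 2 and 5.84 TPM in replicate 1, a ratio of 32.0 (29.6 to 34.6). These were the 3 most abundant members in replicate 2, and in replicate 1 they ranked 8 (Col3a1), 17 (Col1a2) and 19 (Col1a1). The balance between the type I chains hardly differed, with a Col1a1 to Col1a2 ratio of TPM of 0.908 in replicate 2 and 0.910 in replicate 1, although each chain differed more than 30-fold between the libraries. By the TPM of whole genes, Col3a1 exceeded Col1a1 by 2.14 times in replicate 2 and 1.66 times in replicate 1. By the full-length transcripts Col3a1-201 and Col1a1-201 alone, the order turned in replicate 1. These had 284 and 196 TPM in replicate 2, and 5.28 and 5.70 TPM in replicate 1.

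The type V chains, which are built into type I fibrils and are known to limit their diameter, differed less. Col5a1 had 19.2 TPM in replicate 2 and 2.99 TPM in replicate 1, a ratio of 6.11 (5.54 to 6.76). Col5a2 had 12.8 TPM in replicate 2 and 2.97 TPM in replicate 1, a ratio of 4.10 (3.65 to 4.61). The related chain Col5a3 stayed under 1 TPM in both libraries, at 0.80 TPM in replicate 2 and 0.61 TPM in replicate 1. Thus 2 of the 3 type V chains were at least 2-fold higher in replicate 2, beside 5.58% of all genes tested.

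Types II and XI are best known as fibril collagens of cartilage, and most cartilage markers were low in both libraries. Col2a1 had 21.2 TPM in replicate 2 and 8.91 TPM in replicate 1, a ratio of 2.13 (1.96 to 2.33). Col11a1 had 12.8 TPM in replicate 2 and 7.33 TPM in replicate 1, and Col11a2 had 3.76 TPM in replicate 2 and 2.95 TPM in replicate 1, with ratios of 1.57 and 1.25 that did not reach 2-fold. Of the 10 cartilage markers, Matn1 was listed at 0 in both libraries, and Acan, the main cartilage proteoglycan, stood at 0.11 TPM in replicate 2 and 0.14 TPM in replicate 1. The whole list summed to 67.3 TPM in replicate 2 and 55.5 TPM in replicate 1, of which Sox9 and Sox5, also expressed by neural progenitors, held most. Cnmd, a cartilage and tendon gene, had 11.0 TPM in replicate 2 and 1.20 TPM in replicate 1. It was 1 of 2 among the 6 tested markers that passed 2-fold toward replicate 2, beside 5.58% of all genes tested. The minor fibrillar chain Col27a1 had 2.52 TPM in replicate 2 and 0.94 TPM in replicate 1, a ratio of 2.20 (1.68 to 2.93). Col24a1, at 0.47 TPM in replicate 2 and 0.71 TPM in replicate 1, was the only fibrillar chain below a ratio of 1, and its interval of 0.414 to 1.05 included 1.

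Of the 8 basement membrane collagens, 7 passed 2-fold toward replicate 2, as did 7 of 11 fibrillar chains, beside 5.58% of all genes tested. The median log2 ratio was 1.76 over the basement membrane collagens, against 1.14 over the fibrillar chains. At a mean count of at least 100 the order turned, with medians of 2.00 for basement membrane and 2.03 for fibrillar collagens. Col4a1 (ENSMUSG00000031502.9, chr8:11198423-11312826), an α chain of the type IV network found in nearly every basement membrane, led the class with 89.6 TPM (8737 counts) in replicate 2 and 18.6 TPM (2421 counts) in replicate 1, a ratio of 4.57 (4.37 to 4.78). Its partner chain Col4a2 (ENSMUSG00000031503.9, chr8:11312805-11449287) had 34.5 TPM in replicate 2 and 9.37 TPM in replicate 1, a ratio of 3.49 (3.27 to 3.74). Both were abundant in each library, and Col4a1 ranked 4 among all members in replicate 2 and 3 in replicate 1. The ratio of Col4a1 to Col4a2 TPM was 2.60 in replicate 2 and 1.98 in replicate 1. The partner chains Col4a5 and Col4a6, of more specialised membranes, were lower: Col4a5 had 11.5 TPM in replicate 2 and 3.44 TPM in replicate 1, and Col4a6 had 2.50 TPM in replicate 2 and 0.29 TPM in replicate 1. Their ratios of replicate 2 to replicate 1 were 3.14 (2.77 to 3.58) and 7.86 (5.66 to 11.5). Col4a3 and Col4a4, chains of the kidney glomerular basement membrane, stayed at or under 0.28 TPM in both libraries. Col4a3 was among the 7 that passed 2-fold, on only 32 counts in replicate 2 and 13 in replicate 1. Col4a4 had a ratio of 1.57 with an interval of 0.895 to 2.83 that included 1.

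Types XV and XVIII are collagens of the basement membrane zone that carry glycosaminoglycan chains, and the end of type XVIII can be released as endostatin. Col18a1 (ENSMUSG00000001435.10, chr10:77052178-77166548) had 34.3 TPM in replicate 2 and 3.94 TPM in replicate 1, a ratio of 8.13 (7.32 to 9.07), the largest of the class. It ranked 9 among members in replicate 2 and 24 in replicate 1. Col15a1 had 4.93 TPM in replicate 2 and 1.63 TPM in replicate 1, a ratio of 3.31 (2.62 to 4.24). Col18a1 overlaps Slc19a1 on the opposite strand, which had 30.2 TPM in replicate 2 and 27.8 TPM in replicate 1, and the strand setting of the counts is not given in the sources used here. Endothelial markers, whose cells make much basement membrane, summed to 273.1 TPM in replicate 2 and 125.3 TPM in replicate 1. Of these, 6 of 10 were at least 2-fold higher, beside 5.58% of all genes tested. Pericyte markers summed to 262.6 TPM in replicate 2 and 133.1 TPM in replicate 1, of which Vtn held 188 and 73.4 TPM. The median ratio of the pericyte list was 1.21. Of its 10 genes, 2 were at least 2-fold higher, beside 5.58% of all genes tested, and 1 at least 2-fold lower, beside 3.11%. The part of these cells in the basement membrane values was not tested.

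Among the other collagens, type VI was divided. Its chains Col6a1, Col6a2 and Col6a3, which assemble into beaded filaments between fibres and basement membranes, had 24.2, 16.8 and 13.8 TPM in replicate 2, against 2.04, 1.93 and 0.88 TPM in replicate 1. Their ratios were 11.1 (9.48 to 13.2), 8.11 (6.85 to 9.72) and 13.3 (10.7 to 16.8). All 3 chains were therefore about as far above replicate 1 as Col18a1 or further. The later-named chains Col6a4, Col6a5 and Col6a6 were at or under 0.15 TPM in replicate 2 and at or under 0.36 TPM in replicate 1, and they lay on the other side of 1, with Col6a4 and Col6a6 at ratios of 0.705 and 0.545, both with intervals that included 1, and with Col6a5 too low to test.

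The FACIT collagens, which sit on the surface of fibrils and whose helix is interrupted, had a median ratio of 1.44. Their summed level was 110.4 TPM in replicate 2 and 81.8 TPM in replicate 1, or 8.52% of collagen TPM in replicate 2 and 41.0% in replicate 1, and 2 of 8 tested chains passed 2-fold, beside 5.58% of all genes tested. Col9a3, a chain of type IX collagen, had 45.9 TPM in replicate 2 and 43.0 TPM in replicate 1 (44.4 ± 2.05, mean and SD, n = 2), a ratio of 1.02 (0.952 to 1.09). It was the most abundant member of all in replicate 1 and ranked 6 in replicate 2. Its partner chains did not match it: Col9a2 had 8.80 TPM in replicate 2 and 6.47 TPM in replicate 1, and Col9a1 had 1.06 TPM in replicate 2 and 0.57 TPM in replicate 1. Col14a1 had 20.6 TPM in replicate 2 and 14.5 TPM in replicate 1, and Col12a1 had 14.3 TPM in replicate 2 and 10.3 TPM in replicate 1. Their ratios of 1.32 (1.22 to 1.41) and 1.25 (1.14 to 1.37) were small beside those of the type I fibrils these chains decorate. Col16a1, at 14.8 TPM in replicate 2 and 4.66 TPM in replicate 1, and Col22a1, a collagen known from muscle and tendon junctions, at 3.0 TPM in replicate 2 and 0.88 TPM in replicate 1, were the 2 that passed 2-fold, with ratios of 4.17 and 3.85. Col19a1 had 1.72 TPM in replicate 2 and 0.98 TPM in replicate 1, and Col20a1 was under 1 TPM in both and too low to test.

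The remaining collagens were mostly low, with exceptions among transmembrane chains. Col25a1, a transmembrane collagen known in mice to be needed for motor axons to innervate muscle, had 7.23 TPM in replicate 2 and 7.89 TPM in replicate 1. Its ratio of 0.871 (0.783 to 0.968) made it the most abundant member with a ratio below 1. Col23a1, also transmembrane, had 6.49 TPM in replicate 2 and 4.09 TPM in replicate 1, whereas Col13a1, found at neuromuscular junctions, had 2.60 TPM in replicate 2 and 0.25 TPM in replicate 1, a ratio of 9.82 (5.60 to 20.5). Col26a1 had 18.1 TPM in replicate 2 and 9.40 TPM in replicate 1, just under 2-fold at 1.89. Col28a1, a collagen known in mice from the basement membranes of peripheral glia, had 4.25 TPM (263 counts) in replicate 2 and 0.27 TPM (23 counts) in replicate 1, a ratio of 14.2 (9.45 to 23.2), the largest outside the fibrillar class. Schwann cell markers summed to 1899 TPM in replicate 2 and 1797 TPM in replicate 1. Nearly all of it came from Fabp7, which neural progenitors also express. Of these markers, 6 of 9 were at least 2-fold higher in replicate 2, beside 5.58% of all genes tested. Cdh19 was at 0 in replicate 1. Markers of sensory ganglion neurons summed to 413.6 TPM in replicate 2 and 59.7 TPM in replicate 1. Of these, 9 of 9 were at least 2-fold higher, beside 5.58% of all genes tested. The part of Schwann cells and sensory ganglion neurons in the Col28a1 value was not tested.

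Of the network-forming chains, Col8a2 had 4.97 TPM in replicate 2 and 1.01 TPM in replicate 1, a ratio of 4.56 (3.61 to 5.88), and Col8a1 had 3.63 TPM in replicate 2 and 1.82 TPM in replicate 1, a ratio of 1.86 (1.54 to 2.26). The more abundant type VIII chain was thus Col8a2 in replicate 2 and Col8a1 in replicate 1. Col7a1, the anchoring fibril collagen of skin, had 1.46 TPM in replicate 2 and 0.16 TPM in replicate 1, but only 64 counts in replicate 2 and 29 in replicate 1, and its ratio was 2.76 by counts and 9.12 by TPM. Col10a1, a marker of hypertrophic cartilage, and Col17a1, a transmembrane collagen of skin attachment, stayed at or under 0.31 TPM in both libraries and were too low to test.

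**Figure D4:**
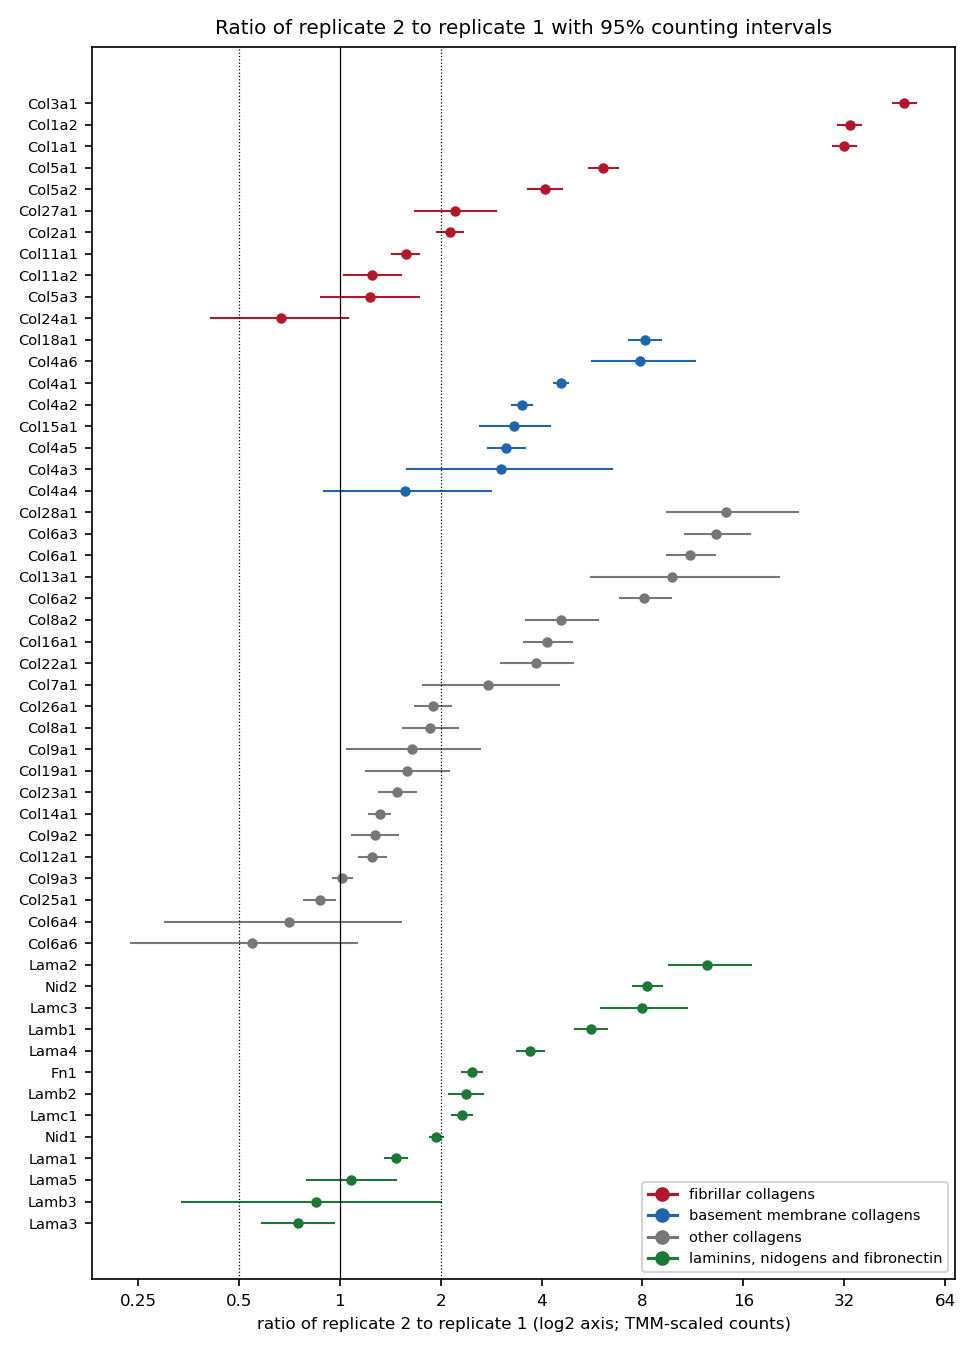
Ratio of replicate 2 to replicate 1 (log2 axis, library-scaled counts) for 53 of the 54 tested members, ordered within class; bars are 95% counting intervals, the solid line is 1 and the dotted lines are 2-fold up and down. Every basement membrane collagen lies to the right of 1, though the interval of Col4a4, 0.895 to 2.83, includes 1. Col9a3, at 1.02, lies near 1, and the laminin chains Lama3, at 0.752, and Lamb3, at 0.850, lie below it.

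Laminins are trimers of 1 α, 1 β and 1 γ chain, and the data held members of each. Summed over chains, the α genes had 48.2 TPM in replicate 2 and 16.8 TPM in replicate 1, the β genes 36.1 TPM in replicate 2 and 11.2 TPM in replicate 1, and the γ genes 37.2 TPM in replicate 2 and 15.3 TPM in replicate 1. Replicate 2 was at least 2-fold above replicate 1 for 6 of 11 laminin genes, beside 5.58% of all genes tested. The median log2 ratio of the laminin genes was 1.21. Lamc1, the γ chain of most laminins, had 32.0 TPM in replicate 2 and 13.6 TPM in replicate 1, a ratio of 2.31 (2.15 to 2.49). Lamb1 had 23.4 TPM in replicate 2 and 4.80 TPM in replicate 1, a ratio of 5.60 (5.03 to 6.27). Lamb2, the β chain known from neuromuscular junctions and mature vessels, had 12.5 TPM in replicate 2 and 6.19 TPM in replicate 1, a ratio of 2.38 (2.12 to 2.67). The leading β chain was therefore Lamb1 in replicate 2 and Lamb2 in replicate 1, with Lamb1 to Lamb2 ratios of TPM of 1.87 in replicate 2 and 0.775 in replicate 1.

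The α chain sets where a laminin is used. Lama4, the α chain of vascular and other mesenchymal membranes, had 29.3 TPM in replicate 2 and 7.66 TPM in replicate 1, a ratio of 3.71 (3.38 to 4.07). Lama1, the α chain of early embryonic membranes and of the pial surface, had 10.8 TPM in replicate 2 and 6.85 TPM in replicate 1, a ratio of 1.47 (1.36 to 1.58). By the TPM of whole genes, Lama4 exceeded Lama1 by 2.72 times in replicate 2 and 1.12 times in replicate 1. The full-length coding transcript Lama4-201 alone had 18.5 TPM in replicate 2 and 4.51 TPM in replicate 1. It was thus below the Lama1 gene in replicate 1. Lama2, the α chain of muscle and Schwann cell membranes, had 5.60 TPM (558 counts) in replicate 2 and 0.42 TPM (56 counts) in replicate 1, a ratio of 12.5 (9.57 to 16.9), the largest among the laminins. Skeletal muscle markers summed to 24.7 TPM in replicate 2 and 43.8 TPM in replicate 1. Of the 8 tested, 0 were at least 2-fold higher, beside 5.58% of all genes tested, and 2 at least 2-fold lower, beside 3.11%. Schwann cell markers were at least 2-fold higher in 6 of 9 cases, with a median ratio of 3.59. The part of either cell type in the Lama2 value was not tested. Lamc3 had 4.04 TPM in replicate 2 and 0.47 TPM in replicate 1, a ratio of 7.97 (6.03 to 10.9).

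Lama3 and Lamb3, chains of epithelial laminin, had ratios below 1. Lama3 had 0.89 TPM in replicate 2 and 0.87 TPM in replicate 1, and Lamb3 had 0.19 TPM in replicate 2 and 0.18 TPM in replicate 1. Their ratios by counts were 0.752 (0.584 to 0.962) and 0.850 (0.339 to 2.01), and the Lama3 ratio by TPM was 1.02. Lama5, the α chain of many epithelial and vascular membranes, had 1.66 TPM in replicate 2 and 0.98 TPM in replicate 1, a ratio of 1.08 (0.796 to 1.47) by counts and 1.69 by TPM. Skin markers were likewise low and not higher in replicate 2, summing to 15.1 TPM in replicate 2 and 17.9 TPM in replicate 1. Krt15 was at 0 in replicate 1. Of the 2 tested, 0 passed 2-fold, beside 5.58% higher and 3.11% lower of all genes tested.

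Scaling the libraries by spike-in RNA instead of by gene counts multiplied ratios by about 1.46, a log2 shift of 0.55, and so moved Col25a1, Col6a4, Lama3 and Lamb3 above 1 and left Col24a1 and Col6a6 as the only 2 tested members below 1. Statements about members at or below a ratio of 1 are relative to gene counts.

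Nidogens bridge the laminin and type IV collagen networks. Nid1 ranked 5 among members in replicate 2 and 2 in replicate 1, and Nid2 ranked 7 in replicate 2 and 21 in replicate 1. Nid1 (ENSMUSG00000005397.7, chr13:13437551-13512269) had 55.5 TPM in replicate 2 and 26.8 TPM in replicate 1, a ratio of 1.94 (1.85 to 2.03) that lies at the 2-fold line. Nid2 had 41.6 TPM in replicate 2 and 4.70 TPM in replicate 1, a ratio of 8.28 (7.50 to 9.16). The pair was nearly balanced in replicate 2, where Nid1 exceeded Nid2 by 1.33 times, and was not in replicate 1, where it exceeded it by 5.70 times. Nid2 overlaps Rtraf on the opposite strand, which had 156 TPM in replicate 2 and 132 TPM in replicate 1. Fn1 (ENSMUSG00000026193.11, chr1:71585520-71653200) had 31.6 TPM in replicate 2 and 14.2 TPM in replicate 1, a ratio of 2.48 (2.32 to 2.66).

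The classes differ in the chains they encode. In the longest coding transcripts of GENCODE, an unbroken Gly-X-Y run of at least 5 triplets was sought in each chain. Fibrillar chains held 2 to 3 runs, and their longest run was 216 to 344 triplets, with a median of 338. Basement membrane chains held 10 to 24 runs, and their longest was 30 to 66 triplets, with a median of 41. FACIT chains had longest runs of 32 to 113 triplets, and type VI chains of 37 to 87. The start of the long run of Col3a1 and Col1a1 and an interrupted stretch of Col4a1 show this at the level of codons. They are printed from the coding strand, 5′ to 3′, with glycine codons in capitals, for codons 164 to 193 of Col3a1, 168 to 197 of Col1a1 and 151 to 180 of Col4a1; the Gly-X-Y spacing breaks between codons 163 and 172 of Col4a1.
Col3a1: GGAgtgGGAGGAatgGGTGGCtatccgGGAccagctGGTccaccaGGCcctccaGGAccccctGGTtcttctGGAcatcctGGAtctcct
Col1a1: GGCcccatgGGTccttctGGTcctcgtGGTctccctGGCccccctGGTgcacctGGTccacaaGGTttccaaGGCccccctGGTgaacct
Col4a1: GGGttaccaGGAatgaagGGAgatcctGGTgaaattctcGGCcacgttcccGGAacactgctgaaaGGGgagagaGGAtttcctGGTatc

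Transcript levels were deposited as well, and for most leading members a single full-length coding transcript held the counts. Col1a1-201 held 100% of the gene's TPM in replicate 2 and 97.7% in replicate 1. Col4a1-201 held 100% in replicate 2 and 98.7% in replicate 1, Col4a2-201 held 100% in replicate 2 and 98.3% in replicate 1, and Col1a2-201 held 96.8% in replicate 2 and 90.5% in replicate 1. Col5a1-201 held 95.6% in replicate 2 and 93.6% in replicate 1, Lamb1-201 held 84.1% in replicate 2 and 64.3% in replicate 1, and Col9a3-201 held 76.5% in replicate 2 and 74.7% in replicate 1. Col6a1, Nid1 and Nid2 each had 100% on 1 transcript in both libraries. Col3a1-201 held 67.8% of the gene's TPM in replicate 2 and 54.4% in replicate 1, and most of the rest fell on Col3a1-205, a transcript of 737 bases that took 4.998% of the gene's counts in replicate 2 and 8.91% in replicate 1. Such short models raise a gene's TPM without adding many reads. The same held for Lamc1, where Lamc1-204, of 1447 bases, held 45.2% of TPM in replicate 2 and 50.4% in replicate 1, but 13.5% of counts in replicate 2 and 15.9% in replicate 1. For Lama4 the retained-intron model Lama4-207, of 511 bases, held 29.9% of TPM in replicate 2 and 29.8% in replicate 1, and for Col11a1 the nonsense-mediated decay model Col11a1-204 held 34.3% in replicate 2 and 23.4% in replicate 1. Col12a1 and Col14a1 were each divided over short and longer models. The short Col12a1-204 held 39.5% of TPM in replicate 2 and 28.3% in replicate 1, and the long Col14a1-203 held 59.6% in replicate 2 and 61.5% in replicate 1. For Col26a1, Col26a1-202 led with 63.1% in replicate 2 and 50.7% in replicate 1. For Fn1, protein-coding transcripts held 48.0% of TPM in replicate 2 and 43.1% in replicate 1, and the retained-intron transcript Fn1-202 held 35.7% in replicate 2 and 23.7% in replicate 1.

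Known splice forms of Fn1 and Col2a1 were led by the same form in both libraries. The 7 full-length coding transcripts of Fn1 summed to 14.0 TPM in replicate 2 and 5.29 TPM in replicate 1. Only 1 of them, Fn1-201, holds the alternative exon of 273 bases, known as extra domain B (GRCm38 chr1:71613763-71614035). Its share was 75.3% in replicate 2 and 86.6% in replicate 1. The 4 with the exon of 270 bases, known as extra domain A (chr1:71603660-71603929), held 100% in both libraries. Inclusion of these exons is known from embryonic fibronectin. For Col2a1, the transcript with the extra exon 2 of 204 bases (chr15:98000403-98000606), the embryonic form made before cartilage matures, held 67.3% of coding TPM in replicate 2 and 74.9% in replicate 1. These shares are estimates from total reads, and no interval is given because the depth over each exon was not analysed here.

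Col18a1 is transcribed from an upstream and a downstream promoter, whose starts lie 52.6 kilobases apart. The transcript from the upstream start held 98.0% of the gene's TPM in replicate 2 and 98.5% in replicate 1, so the 8.13-fold difference between the libraries concerned that transcript. RefSeq's promoter windows (GRCm38.p6, 250 bases before to 50 after a start) were searched for a CCAAT box (spelled CCAAT), a GC box (spelled GGGCGG) and a TATA box (spelled TATAAA), each on both strands, with matches in capitals below. A match on the opposite strand is printed as its reverse complement. No match overlaps another in the windows shown. The upstream window, chr10:77166481-77166780 on the minus strand, held 1 CCAAT box and 3 GC boxes, and the downstream window, chr10:77113656-77113955 on the minus strand, held none of the 3 motifs.
Col18a1 upstream: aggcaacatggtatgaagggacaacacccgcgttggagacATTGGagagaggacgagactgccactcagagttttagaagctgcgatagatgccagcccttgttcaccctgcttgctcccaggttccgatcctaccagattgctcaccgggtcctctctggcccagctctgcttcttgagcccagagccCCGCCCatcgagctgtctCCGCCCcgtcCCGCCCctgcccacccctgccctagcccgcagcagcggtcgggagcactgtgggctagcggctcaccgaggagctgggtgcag
Col18a1 downstream: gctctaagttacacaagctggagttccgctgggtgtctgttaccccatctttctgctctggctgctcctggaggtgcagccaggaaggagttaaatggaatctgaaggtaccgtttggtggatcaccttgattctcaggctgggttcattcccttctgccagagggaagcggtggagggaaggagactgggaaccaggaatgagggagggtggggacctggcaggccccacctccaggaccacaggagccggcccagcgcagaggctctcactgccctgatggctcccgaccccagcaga

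The promoter windows of Col3a1 and Col1a2 differed in these letters. The Col3a1 window (chr1:45311288-45311587, plus strand) was 37.7% G and C, with 1 TATA box and neither other motif. The Col1a2 window (chr6:4505368-4505667, plus strand) was 61.0% G and C, with 2 CCAAT boxes and 2 GC boxes and no TATA box. This window lies inside the annotated gene, which begins at chr6:4504814, whereas the Col3a1 window spans its gene's start at chr1:45311538. Sequence at the annotated Col1a2 start was therefore not searched. They are shown because these genes had the largest and second largest ratios of all members.
Col3a1: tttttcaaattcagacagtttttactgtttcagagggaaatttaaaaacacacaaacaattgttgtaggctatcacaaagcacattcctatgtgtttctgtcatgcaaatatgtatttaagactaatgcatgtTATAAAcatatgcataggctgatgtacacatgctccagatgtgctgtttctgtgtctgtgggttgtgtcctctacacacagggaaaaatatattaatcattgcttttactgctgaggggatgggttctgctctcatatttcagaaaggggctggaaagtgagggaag
Col1a2: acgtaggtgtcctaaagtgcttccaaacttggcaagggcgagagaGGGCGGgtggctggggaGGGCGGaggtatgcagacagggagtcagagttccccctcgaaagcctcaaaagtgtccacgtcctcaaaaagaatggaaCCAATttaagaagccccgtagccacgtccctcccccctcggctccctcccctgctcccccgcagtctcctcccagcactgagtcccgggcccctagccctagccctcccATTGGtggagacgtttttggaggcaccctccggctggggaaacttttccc

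Col4a1 and Col4a2 lie head to head on chromosome 8 and are transcribed away from each other, with annotated genes that overlap by 22 bases and promoter windows that overlap by 78 bases. Their windows (chr8:11312777-11313076, minus strand, for Col4a1, and chr8:11312555-11312854, plus strand, for Col4a2) were 74.0% and 73.7% G and C, and each held 1 CCAAT box. They held 1 GC box in the Col4a1 window and 3 in the Col4a2 window. The GC box of the Col4a1 window lies in the overlap and is the same site as the last GC box printed for Col4a2.
Col4a1: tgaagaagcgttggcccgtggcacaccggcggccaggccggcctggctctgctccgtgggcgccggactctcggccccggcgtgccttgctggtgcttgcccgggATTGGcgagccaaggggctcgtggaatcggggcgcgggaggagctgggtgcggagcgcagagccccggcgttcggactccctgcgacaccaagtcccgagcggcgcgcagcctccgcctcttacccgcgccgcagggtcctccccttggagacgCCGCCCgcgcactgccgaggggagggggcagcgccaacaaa
Col4a2: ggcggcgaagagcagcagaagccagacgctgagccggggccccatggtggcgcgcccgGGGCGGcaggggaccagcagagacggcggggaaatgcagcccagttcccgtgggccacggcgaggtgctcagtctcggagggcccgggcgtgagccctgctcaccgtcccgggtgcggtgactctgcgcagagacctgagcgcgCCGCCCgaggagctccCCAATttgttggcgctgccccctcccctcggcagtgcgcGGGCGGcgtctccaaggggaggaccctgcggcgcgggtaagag

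Windows were found for 41 of the 58 members, 45 in all. A GC box was in 27 of the 45 (60.0%), beside 35.7% of the 32851 windows of all genes; a CCAAT box was in 15 (33.3%), beside 37.4%; and a TATA box was in 5 (11.1%), beside 13.6%. The median content of G and C was 59.7% over members and 52.7% over all windows, and matches to GC-rich letters are more frequent in windows rich in G and C. A match is a description of letters and not of binding.

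Several members are neighbours in the genome, and neighbours did not always have like ratios. Col4a4 and Col4a3 lie head to head on chromosome 1, 71 bases apart, both under 1 TPM. Col4a6 and Col4a5 lie head to head on the X chromosome, 1308 bases apart, with ratios of 7.86 and 3.14, and Col4a5 exceeded Col4a6 by 4.61 times in replicate 2 and 11.9 times in replicate 1. Col3a1 and Col5a2 lie tail to tail on chromosome 1 with 24.6 kilobases between them, and their ratios were 48.4 and 4.10. Col6a2 and Col6a1 lie on the same strand of chromosome 10, 85.2 kilobases apart, with ratios of 8.11 and 11.1. The low chains Col6a4, Col6a5 and Col6a6 form a row on chromosome 9.

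The enzymes and chaperones that make collagen differed less than the collagens. Of 30 genes of collagen biosynthesis, 10 were at least 2-fold higher in replicate 2, beside 5.58% of all genes tested, and 0 lower, beside 3.11%. The list's median ratio was 1.48, beside 0.996 for all genes tested. The 4 most abundant had ratios of 1.06 to 1.27: Ppib, a prolyl isomerase, had 295 TPM in replicate 2 and 230 TPM in replicate 1; P4hb, the shared subunit of prolyl hydroxylase, had 277 TPM in replicate 2 and 204 TPM in replicate 1; Sec23a, a coat protein of vesicles that leave the endoplasmic reticulum, had 114 TPM in replicate 2 and 101 TPM in replicate 1; and Mia3, a cargo receptor for large collagens, had 110 TPM in replicate 2 and 88.3 TPM in replicate 1. Of the 10 that passed 2-fold, 3 are named here after their values were seen. The collagen chaperone Serpinh1 had 106 TPM in replicate 2 and 28.7 TPM in replicate 1, a ratio of 3.43. The cross-linking enzyme Lox had 11.1 TPM in replicate 2 and 0.40 TPM in replicate 1, a ratio of 24.8. Pcolce, which speeds removal of the procollagen end piece, had 46.4 TPM in replicate 2 and 1.90 TPM in replicate 1, a ratio of 24.1.

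Most other components of basement membranes did not reach a 2-fold difference. Replicate 2 was still at least 2-fold above replicate 1 for 5 of 18 genes, beside 5.58% of all genes tested. The median ratio was 1.26, beside 0.996 for all genes tested, and 1 gene was at least 2-fold lower in replicate 2, beside 3.11%. That 1 gene, Hmcn2, had 7 counts in replicate 2 and 20 in replicate 1, with an interval of 0.158 to 1.09 that included 1, and its TPM ran the other way, at 0.41 in replicate 2 and 0.14 in replicate 1. Sparc, a collagen-binding glycoprotein, had 619 TPM in replicate 2 and 269 TPM in replicate 1, a ratio of 2.33, and Matn2 had 20.7 TPM in replicate 2 and 9.44 TPM in replicate 1, a ratio of 2.05. Agrn, the heparan sulphate proteoglycan agrin, which neurons also make, had 111 TPM in replicate 2 and 79.4 TPM in replicate 1, and Pxdn, the peroxidase that cross-links type IV collagen, had 54.1 TPM in replicate 2 and 38.4 TPM in replicate 1. Their ratios were 1.27 and 1.40, below those of Col4a1 and Col4a2.

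Matrix proteoglycans and glycoproteins were mostly higher in replicate 2. Of 23 tested, 18 were at least 2-fold higher in replicate 2, beside 5.58% of all genes tested, and 0 lower, beside 3.11%. Their median ratio was 3.19. Mfap2, a microfibril protein, had 187 TPM in replicate 2 and 86.2 TPM in replicate 1, a ratio of 2.04. Dcn, the small proteoglycan decorin, which binds type I fibrils, had 115 TPM in replicate 2 and 21.1 TPM in replicate 1, a ratio of 5.13. Postn, which encodes periostin, had 64.2 TPM in replicate 2 and 4.15 TPM in replicate 1, a ratio of 19.4. Tnc, tenascin C, which radial glia also make, was the exception among the 4 most abundant, with 39.9 TPM in replicate 2 and 60.4 TPM in replicate 1, a ratio of 0.620 (0.597 to 0.643). The genes Lum and Dpt of this list are also on the list of meninges and fibroblast markers.

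Markers of meninges and fibroblasts were higher in replicate 2 along with the fibrillar chains. Their median ratio was 8.38 over the 14 tested, and 6 of 15 reached 1 TPM in both libraries. Slc6a13, a transporter of the arachnoid and pia, had 36.7 TPM in replicate 2 and 0.69 TPM in replicate 1, and Ptgds had 72.2 TPM in replicate 2 and 4.45 TPM in replicate 1. Aldh1a2, which motor neurons also express, had 57.5 TPM in replicate 2 and 9.50 TPM in replicate 1, and Crabp2 had 84.2 TPM in replicate 2 and 36.0 TPM in replicate 1. Twist2 was the only tested marker that was not at least 2-fold higher, at 1.04 TPM in replicate 2 and 1.09 TPM in replicate 1, and none of the list was at 0. Microglia and macrophage markers summed to 162.0 TPM in replicate 2 and 90.2 TPM in replicate 1. Of these, 2 of 9 were at least 2-fold higher, beside 5.58% of all genes tested. Notochord markers summed to 3.77 TPM in replicate 2 and 4.57 TPM in replicate 1, and choroid plexus markers to 3.11 TPM in replicate 2 and 3.70 TPM in replicate 1. The difference in sex-linked genes and the litter move with the same 2 libraries, so they cannot be told apart from the difference in matrix genes, and the part of meninges in it was not tested.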

How the data were processed

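Each library was quantified separately. Extraction used a mirVana kit and a protocol named for Smart-seq, per the labels' protocols. The genome was mm10 and the annotation GENCODE release M4, per the texts that accompany the deposited tables. No aligner, quantifier, version or strand setting is given in those texts or in the labels. Expected counts were deposited as unnormalised estimates of reads for each gene and transcript. The deposited TPM values are scaled over all rows, spike-ins included. The deposited FPKM values, scaled by length and depth, were an alternative. The deposited percent columns give each transcript's share of its gene's TPM. Of the deposited score columns, gene and transcript lengths described features and posterior spreads were not used.

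Symbols, types and exons came from GENCODE M21 (GRCm38) by identifier without version; 42462 gene rows matched and 884 did not. Rounded counts, a prior count of 0.5 and TMM library sizes (edgeR 4.0.16, R 4.3.3) gave the ratios, with exact Clopper-Pearson intervals of 95%; reads are not unique molecules, so these cover counting error only. The gene rows held 25428728 counts in replicate 2 and 32255343 in replicate 1, and spike-ins took 2.29% and 3.31% of the totals. With 1 group and 2 libraries no contrast could be tested. The scripts were tested on simulated data. Tables were made with pandas 2.3.3 and SciPy 1.17.1 in Python 3.11.15, and figures with matplotlib 3.10.9; DESeq2 1.42.0 size factors were an alternative. Members with a mean TPM of at least 1 were named, except 1 that is not reported here though counts and sums include it, as were the 4 highest of each list of other matrix genes, and transcripts with at least 20% of a leading member's TPM were considered. The family of genes, which fixes its members by symbol, and the lists were chosen with earlier results of these data known.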

Additional observations from a re-analysis of the deposited data

How the results depend on the processing

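Depth limits the members under 1 TPM, whose intervals are wide, and 2 libraries from 1 group do not show how matrix levels vary between embryos. No paired analysis was possible because there is 1 group. Of 86 recomputed values, 33 moved, 4 reversed and 49 stayed within tolerance, which was 1.5 times for a count, the SD over the libraries for a class difference and the counting interval of a class's summed counts for a median; except where named below, the cause was not tested. The log2 difference of basement membrane minus fibrillar collagens, from the log2 ratio of the sums where summed TPM is named and otherwise with a pseudocount of 1 unless another is named, was -2.35 by summed TPM, 0.062 with members of 1 TPM or more in at least 1 library and -1.06 with type IV alone as basement membrane in replicate 2, and -0.74 with type IV alone in replicate 1. Basement membrane minus other collagens was 0.81 with a pseudocount of 0.1, -0.27 by summed TPM, 0.65 by FPKM, 1.35 with members of 1 TPM or more and 0.16 with type IV alone in replicate 2. In replicate 1 it was 1.196 with a pseudocount of 0.1, 0.21 by means, -1.59 by summed TPM, 0.64 by FPKM, 0.90 by posterior mean TPM, 0.68 with members of 1 TPM or more and 0.25 with type IV alone. Fibrillar minus other collagens was 1.76 by means and 2.07 by summed TPM in replicate 2, and 1.52 with a pseudocount of 0.1, 0.60 by means and -1.19 by summed TPM in replicate 1. A sum is not divided by the number of members, which is 25 for other, 8 for basement membrane and 11 for fibrillar collagens. Members at least 2-fold higher numbered 28 to 40 over the alternatives, the most with spike-in sizes, against 31. Members at 1 TPM or more numbered 34 to 46 when a replicate was left out. The count of members at least 2-fold lower was 1 by deposited TPM (Col6a4), 1 with no filter on counts (Col6a5) and 1 at 1.5-fold (Col6a6). Median log2 ratios with spike-in library sizes were 1.69 for fibrillar, 2.31 for basement membrane and 1.44 for other collagens and 1.78 for laminins, nidogens and fibronectin, since every ratio shifts alike. By deposited TPM they were 1.42, 1.84, 0.94 and 1.10 in the same order. At a mean count of at least 100 they were 2.03 for fibrillar and 2.00 for basement membrane collagens and 1.31 for laminins, nidogens and fibronectin, with fewer genes. The fibrillar median was 1.10 with a prior count of 5, and the median of other collagens was 0.72 with no filter. By deposited TPM, 31 members were at least 2-fold higher as by counts, and Nid1 was added.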

Other observations

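Receptors for these matrix proteins were less different between the libraries than the matrix genes themselves. Replicate 2 was at least 2-fold above replicate 1 for 8 of 28 tested receptor genes, beside 5.58% of all genes tested. It was at least 2-fold below for 0, beside 3.11%, and the median ratio was 1.74. Itgb1, the β chain shared by most integrins that bind collagen and laminin, had 104 TPM in replicate 2 and 55.4 TPM in replicate 1, a ratio of 1.77 (1.70 to 1.84). Dag1, dystroglycan, a laminin receptor, had 60.6 TPM in replicate 2 and 46.0 TPM in replicate 1. Adgrg1, which binds type III collagen in the developing brain, had 72.5 TPM in replicate 2 and 56.3 TPM in replicate 1, and Sdc3, a neuronal syndecan, had 68.0 TPM in replicate 2 and 66.0 TPM in replicate 1. Ddr2, a receptor for fibrillar collagens named after its value was seen, had 9.40 TPM in replicate 2 and 0.70 TPM in replicate 1.

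The genes of matrix remodelling that passed 2-fold were all higher in replicate 2. Of 16 tested, 5 were at least 2-fold higher, beside 5.58% of all genes tested, and 0 were at least 2-fold lower, beside 3.11%. The median ratio was 1.48. The inhibitor of metalloproteinases Timp2 had 77.2 TPM in replicate 2 and 72.3 TPM in replicate 1, Timp3 had 47.3 TPM in replicate 2 and 35.6 TPM in replicate 1, and the membrane protease Mmp16 had 40.7 TPM in replicate 2 and 50.2 TPM in replicate 1. Timp4 had 24.3 TPM in replicate 2 and 41.1 TPM in replicate 1, a ratio of 0.554 (0.496 to 0.617). Mmp13 was listed at 0 in both libraries.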
